A study of Mus musculus with 2 samples.

Results

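The nuclear pore complex and the receptors that carry cargo through it were examined in RAW264.7, an established line of mouse macrophage-like tumour cells, grown in 2D or in 3D culture. The members are 46 genes listed by name and found among 52550 gene identifiers through their mm10 symbols: 27 nucleoporins, 18 import and export receptors, and the GTPase Ran. The cells of both cultures were untreated, each culture method is represented by 1 library, and RNA was taken with TRIzol and made into stranded libraries of polyadenylated RNA, per the labels' protocols. The 3D culture system is not described further in the labels.

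The nuclear pore is a large channel through the nuclear envelope, built of many copies of each of its nucleoporins. A scaffold of Y-shaped complexes and an inner ring carries a central channel of proteins rich in phenylalanine-glycine repeats, with filaments on the cytoplasmic face and a basket on the nuclear face. Importins bind cargo in the cytoplasm and release it where Ran is bound to GTP in the nucleus, while exportins bind cargo together with Ran-GTP and release it once the GTP is hydrolysed. In macrophages this traffic carries signal-dependent transcription factors such as NF-kB and STAT proteins into the nucleus.

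The libraries held 14371084 counts (2D) and 16652503 counts (3D). A gene at 0 counts could have reached 0.17 and 0.222 CPM, that is TMM-scaled counts per 1000000, and these limits and all intervals below cover counting error only. All 46 members passed the filter of a mean of at least 1 CPM, as did 11673 genes in all, and their counts ran from 169 to 9894, so counting error is small beside most ratios. Spread between cultures is not measured, because there is 1 library per culture method, and no p-value was computed. In such bulk RNA, fewer cells of a kind and less RNA per cell cannot be told apart. All 10 macrophage markers were measured, with summed levels of 3438 CPM (2D) and 9906 CPM (3D), 7 of them at least 2-fold higher and 1 (Ptprc) at least 2-fold lower in the 3D library. Of 8 hepatocyte markers 7 were matched, with 10 counts in 2D and 331 in 3D, Alb holding most of them, and 4 were at 0 in the 2D library. Fibroblast, epithelial, lymphocyte and endothelial markers summed to at most 2.96 CPM in either library, with Cd3e, Ms4a1, Col3a1 and Lum at 0 in both. Of 6 proliferation markers, 3 (Cenpf, Mki67, Top2a) were at least 2-fold lower in the 3D library, and the summed level was 1371 CPM against 664 CPM. The others did not fall with them: Plk1 was 1.91-fold and Aurka 1.33-fold higher in 3D, and the interval of Ccnb1 held 1. The part of these marker differences in the members' values was not tested.

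Most transcripts of the pore and its receptors differed by less than 2-fold between the cultures, and those past 2-fold were mainly lower in 3D. Of the 46 members, 7 were at least 2-fold lower in the 3D library: the filament gene Ranbp2, the basket genes Tpr and Nup153, the channel gene Nup54, the exportin gene Xpo1, and the importin genes Kpna4 and Ipo7. The 2 that were at least 2-fold higher were the importin gene Ipo4 and the filament gene Nup214. Of all measured genes 20.8% were lower by this rule and 18.7% higher (39.5% in all), so both counts, 15.2% and 4.35% of the members, lay below the background with TMM scaling. The counting interval of the ratio was wholly above 1 for 16 members (43.3% of all genes), wholly below 1 for 25 (39.9%) and held 1 for 5 (16.8%). The bound nearest to 1 was past 2-fold for 1 member upward (Ipo4, 13.1% of all genes) and 4 downward (Ranbp2, Tpr, Xpo1 and Ipo7, 14.4%). The median log2 ratio of the members was -0.24, which is 0.29 below that of all measured genes (0.05), and 30 of 46 members lay below the all-gene median, where 50% of all genes lie. Scaling moved the balance of these counts: with total counts in place of TMM, the all-gene median shifts by -0.61, and 0 members were at least 2-fold higher and 18 lower, beside a background of 5.59% and 36.5%, so that the lower share of 39.1% then passed the background. It also turned the direction of 12 of the 17 members above 1: Ipo5, Ipo9, Kpna6, Nup133, Nup205, Nup50, Nup62, Nup93, Rae1, Ran, Sec13 and Xpo5 were below 1 with total counts. Directions below are those with TMM scaling. The relative median of -0.29 became -0.14 with no filter on low counts and -0.027 after the adjustment described further on.

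**Figure D1:**
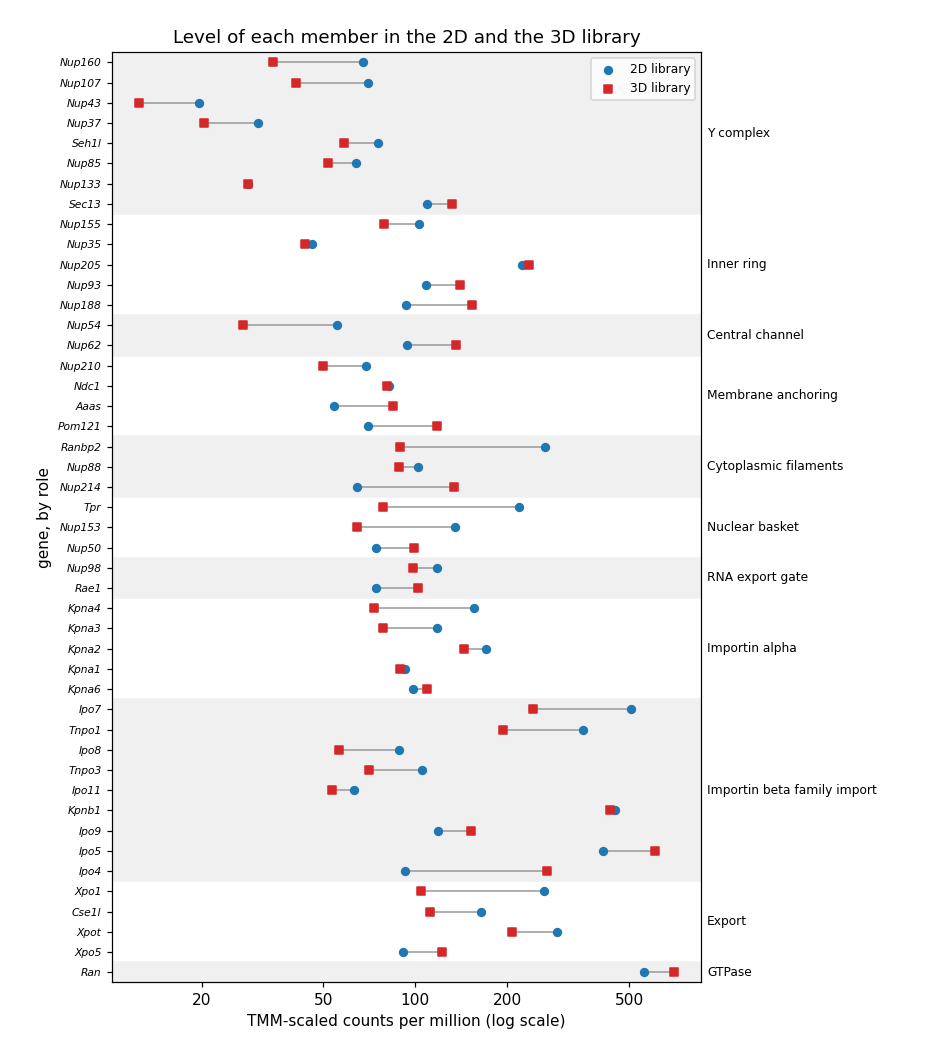
Level of each of the 46 members in TMM-scaled counts per 1000000 (log axis), blue circles for the 2D library and red squares for the 3D library, grouped by role with 1 library per culture method. Ran and Kpnb1 sit far to the right with short lines, while Ranbp2 (266 and 89.3 CPM) and Ipo4 (92.2 and 269 CPM) have the longest lines, in opposite directions.

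The bases before the transcription starts of 5 of these 9 genes are shown, since they include the lowest nucleoporins and both genes that were higher. The windows are the 250 bases before the RefSeq start (GRCm38.p6), 5′ to 3′ on the gene's strand: chr10:58446602-58446851 (plus) for Ranbp2, chr1:150392588-150392837 (plus) for Tpr, chr13:46727850-46728099 (minus) for Nup153, chr2:31974200-31974449 (plus) for Nup214 and chr14:55635685-55635934 (minus) for Ipo4. In the GENCODE M21 annotation Ipo4 spans chr14:55625400-55635957 (minus), so its whole window lies inside the gene, downstream of that start. The windows of Nup153 and Nup214 lie partly inside their annotated genes. Capitals mark matches on either strand to TGCGCA (a half-site core of NRF1), CGGAAG (ETS), CCAAT (NF-Y), CACGTG (E-box), GGGCGG (GC box) and ATGACGC, which was added after the windows had been read.
Ranbp2: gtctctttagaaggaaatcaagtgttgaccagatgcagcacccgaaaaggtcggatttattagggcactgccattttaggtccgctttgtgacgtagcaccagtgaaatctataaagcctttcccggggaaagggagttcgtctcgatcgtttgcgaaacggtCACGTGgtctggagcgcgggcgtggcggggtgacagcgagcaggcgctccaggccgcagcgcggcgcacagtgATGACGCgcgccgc
Tpr: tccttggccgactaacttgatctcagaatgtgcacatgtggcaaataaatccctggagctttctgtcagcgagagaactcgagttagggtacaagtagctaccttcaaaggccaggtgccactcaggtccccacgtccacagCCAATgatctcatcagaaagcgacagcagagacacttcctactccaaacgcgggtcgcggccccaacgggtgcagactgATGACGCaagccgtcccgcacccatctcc
Nup153: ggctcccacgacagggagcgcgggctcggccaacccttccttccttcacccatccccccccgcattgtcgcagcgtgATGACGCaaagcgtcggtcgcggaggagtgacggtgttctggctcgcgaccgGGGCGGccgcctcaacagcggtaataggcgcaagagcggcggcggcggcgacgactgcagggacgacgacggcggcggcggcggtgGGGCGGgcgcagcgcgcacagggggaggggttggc
Nup214: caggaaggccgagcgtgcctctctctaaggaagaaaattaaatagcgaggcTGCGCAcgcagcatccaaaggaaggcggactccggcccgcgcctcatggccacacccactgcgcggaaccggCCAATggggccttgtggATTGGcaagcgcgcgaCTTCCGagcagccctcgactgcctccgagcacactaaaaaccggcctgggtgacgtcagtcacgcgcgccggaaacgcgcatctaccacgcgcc
Ipo4: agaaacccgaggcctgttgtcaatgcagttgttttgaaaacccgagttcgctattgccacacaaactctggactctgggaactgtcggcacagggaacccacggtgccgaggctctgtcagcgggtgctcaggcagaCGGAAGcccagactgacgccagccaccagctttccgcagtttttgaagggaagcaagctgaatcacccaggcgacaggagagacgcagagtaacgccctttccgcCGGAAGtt
The run ATGACGC occurs once in each of the Ranbp2, Tpr and Nup153 windows and in none of the other windows of members. The windows of Xpo1, Kpna4, Ipo7 and Nup54, also at least 2-fold lower, are not shown and do not hold it. In the windows of Ranbp2 and Tpr the run lies near the start, and in that of Nup153 farther upstream. It was found in 3 of 44 member windows (38 genes matched, some with several starts), in 1.12% of all 32851 windows and in 1.87% of the 10819 windows of measured protein-coding genes. Because the run was picked from these same member windows, its share among them was fixed by that choice and cannot be compared with the other shares. The ETS letters were in 36.4% of member windows against 26.6% of measured protein-coding ones, the NRF1 letters in 18.2% against 12%, the E-box in 15.9% against 8.49%, the NF-Y letters in 40.9% against 35.6% and the GC box in 59.1% against 58.6%. Over all windows the same shares were 13.6% (ETS), 6.43% (NRF1), 6.02% (E-box), 33.8% (NF-Y) and 32.7% (GC box). The windows also differed in GC content, with a median of 63.6% for members, 60.0% for measured protein-coding genes and 52.4% for all. The part of GC content in these shares was not tested. All of them are matches of letters and show no binding.

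The Y complex, the outer scaffold that coats both faces of the pore, had its subunits at or below equality apart from Sec13. Nup160, one of its arm subunits, had 1196 and 462 counts in 2D and 3D, or 67.6 and 34.1 CPM, 1.98-fold lower (95% counting interval 1.78 to 2.21) and just short of the 2-fold rule. Nup107 stood at 70.2 and 40.8 CPM (1.72-fold lower). The small beta-propeller subunits Nup43 (19.6 and 12.5 CPM) and Nup37 (30.6 and 20.3 CPM) were 1.57-fold and 1.51-fold lower, Nup43 having the fewest counts of any member at 346 and 169. Seh1l and Nup85 were 1.29-fold and 1.24-fold lower, and Nup133, which links neighbouring Y complexes, stood at 28.4 and 28.5 CPM. Sec13, which also serves in the COPII coat of secretory vesicles, was the subunit with the highest ratio, with 1925 and 1777 counts or 109 and 131 CPM (1.21-fold higher, 1.13 to 1.29). None of the 8 passed 2-fold, 7 lay below the all-gene median, and their median log2 ratio was -0.48.

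The inner ring, which holds the central channel in place, lay around the median of all genes. Nup155, which touches the membrane, had the lowest ratio, with 1818 and 1069 counts or 103 and 79.0 CPM (1.30-fold lower, 1.21 to 1.40). Nup188, which pairs with Nup93, had the highest, with 1650 and 2078 counts or 93.3 and 154 CPM (1.65-fold higher, 1.54 to 1.76). Nup93, the hub of the ring, was 1.29-fold higher, and Nup205 was 1.06-fold higher. Nup35 was 1.06-fold lower with an interval that holds 1, and 83.1% of its 50-base runs also occur in Gm4353, so its counts are uncertain. The median log2 ratio of the 5 genes was 0.08.

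Subunits of the central channel lay on opposite sides of 1 with TMM scaling, whereas both were below 1 with total counts (Nup62 at a log2 ratio of -0.07) and reference genes (-0.14). Nup54 (chr5:92415540-92435219) had 983 and 370 counts, or 55.6 and 27.3 CPM, 2.03-fold lower in the 3D library (1.80 to 2.30). Nup62 had 1666 and 1836 counts, or 94.2 and 136 CPM, 1.44-fold higher (1.35 to 1.54). It shares 97 exonic bases with Il4i1 on the same strand, a gene at 0 counts in both libraries. The Nup54 to Nup62 count ratio thus changed from 0.59 to 0.202, a 2.93-fold change that does not depend on scaling (2.55 to 3.36). It does depend on the adjustment for GC content, exon length and level described further on, after which both genes had a log2 ratio of -0.65. This pair and the other pairs below were chosen after their values were seen. The remaining channel subunit, Nup58 (listed as Nupl1, chr14:60184612-60251431), is listed at 0 in both libraries. A gene annotated over the same locus on the same strand, Gm49336, covers 48.8% of the exonic bases of Nupl1 and had 1159 and 443 counts (2.00-fold lower, 1.79 to 2.24). Only 13.8% of the exonic bases of Gm49336 itself are shared with Nupl1, so its ratio is not a value for Nup58. Reads of these genes cannot be told apart in the shared exons. Why Nupl1 is at 0 although its other exonic bases are not shared with Gm49336 was not tested, and the level of Nup58 was not determined. The overlapping gene was looked up after the 0 was seen.

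**Figure D2:**
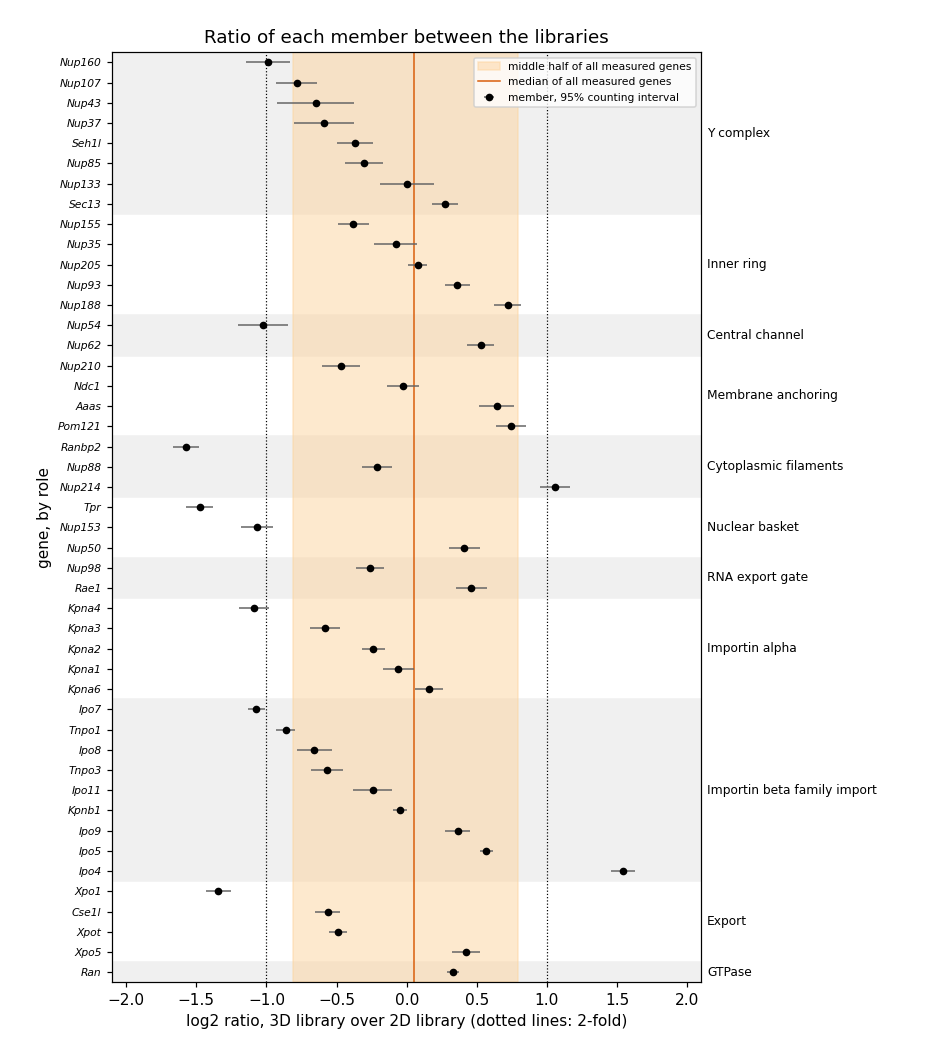
Log2 ratio of the 3D over the 2D library for each member, by role, with 95% counting intervals as bars; the orange line is the median of all measured genes (0.05), the shaded band their interquartile range (-0.81 to 0.79) and dotted lines mark 2-fold. Within the filaments, the channel and the basket, genes lie on both sides of the band's centre, and 7 members lie left of the left dotted line against 2 right of the right one.

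The membrane-anchored group split. Pom121, a transmembrane nucleoporin, had 1240 and 1588 counts, or 70.1 and 117 CPM (1.67-fold higher, 1.55 to 1.80), and Aaas, which Ndc1 tethers to the pore, was 1.56-fold higher. Ndc1 itself stood at 82.1 and 80.7 CPM, with an interval that holds 1. Nup210, a transmembrane glycoprotein, was the lowest, with 1219 and 674 counts or 68.9 and 49.8 CPM (1.38-fold lower, 1.26 to 1.52). Pom121 shares 665 exonic bases with Nsun5 on the opposite strand, and the labels do not state the strand setting of the counting. Opposite-strand exonic overlap occurs in 12 members in all, among them Nup214 (451 bases), Tpr (380 bases) and Nup62 (82 bases), and its part in their counts was not tested.

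The cytoplasmic filaments held the widest spread of unadjusted ratios within any part of the pore. After adjustment their log2 ratios ran from -0.55 to 0.61, a narrower span than that of the basket (-1.02 to 0.30). Ranbp2 (chr10:58446920-58494356), the giant filament protein that binds Ran, had 4704 and 1209 counts. Its level was 266 CPM in 2D and 89.3 CPM in 3D, 2.98-fold lower (2.79 to 3.17) and the lowest ratio among the members. Nup214 (chr2:31974436-32053975), the docking site for Xpo1 on the cytoplasmic face, had 1141 and 1816 counts, 64.5 and 134 CPM, 2.08-fold higher (1.93 to 2.24). Nup88, the partner of Nup214, was 1.16-fold lower at 102 and 88.2 CPM. In counts, Ranbp2 was 4.12 times Nup214 in 2D and 0.666 times in 3D, a 6.19-fold change (5.62 to 6.83).

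In the nuclear basket, both structural genes were lower, and the ratio of the soluble cofactor changed side with the scaling. Tpr (chr1:150392838-150449935), which forms the basket's filaments, had 3867 and 1063 counts, 219 and 78.6 CPM, 2.78-fold lower (2.60 to 2.98). Nup153 (chr13:46679905-46727940), which anchors Tpr, had 2378 and 869 counts, 134 and 64.2 CPM, 2.09-fold lower (1.94 to 2.27). Nup50, a mobile nucleoporin that helps importin alpha release its cargo, had 1318 and 1340 counts, or 74.5 and 99.0 CPM, 1.33-fold higher (1.23 to 1.43), but at a log2 ratio of -0.19 with total counts and -0.25 with reference genes. The summed level of the 3 genes was 428 CPM in 2D and 242 CPM in 3D, the lowest ratio of any role group at 0.565. In the pair that serves messenger RNA export, Nup98 had 2085 and 1332 counts, or 118 and 98.4 CPM, 1.20-fold lower (1.12 to 1.28). Its partner Rae1 had 1311 and 1379 counts, or 74.1 and 102 CPM, 1.37-fold higher (1.27 to 1.48).

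The importin alpha adaptors, which read the classical nuclear localisation signal, had ratios from 2.13-fold lower to 1.12-fold higher. Kpna4 (chr3:69067149-69127113) had 2759 and 993 counts, 156 and 73.4 CPM, 2.13-fold lower (1.98 to 2.29), and its close paralogue Kpna3 had 118 and 78.5 CPM, a log2 ratio of -0.58. In the other paralogous pair, Kpna1 stood at 92.8 and 89.1 CPM, with an interval that holds 1. Kpna6 had the highest ratio of the adaptors, with 1734 and 1482 counts or 98.0 and 109.5 CPM (1.12-fold higher, 1.04 to 1.20). Kpna4 and Kpna3 carry NF-kB subunits among other cargo. Kpna2, a cell-cycle-linked adaptor, was 1.18-fold lower, but 92.4% of its 50-base runs occur in other genes and its counts are uncertain.

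Among the importin beta family, Kpnb1, which carries importin alpha and its cargo inward, stood at 448 and 434 CPM, with an interval that holds 1. Ipo4 (chr14:55625400-55635957), an importer of histones and ribosomal proteins, had 1630 and 3638 counts, 92.2 and 269 CPM, 2.92-fold higher (2.75 to 3.09) and the highest ratio of all members. Ipo4 overlaps Gm49378 on the same strand over 2583 exonic bases, but Gm49378 is not among the gene identifiers counted and so has no counts. Ipo7 (chr7:110018274-110056609), an importer of ribosomal proteins and linker histone, had 8988 and 3272 counts, 508 and 242 CPM, a log2 ratio of -1.07 (lower by 2.02-fold to 2.19-fold). Its paralogue Ipo8 was also lower, at 88.7 and 56.2 CPM (1.58-fold). The transportins, which import RNA-binding proteins, were below 1 as well. Tnpo1, with 14.1% of its 50-base runs also in Gm6493, was 1.82-fold lower. Tnpo3, the importer of serine-arginine-rich splicing factors, was 1.48-fold lower. Ipo5 and Ipo9 went the other way at 1.48-fold and 1.29-fold higher, and Ipo11 was 1.18-fold lower. The 9 receptors thus had 3 above and 6 below the all-gene median.

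Of the export receptors, 3 of 4 were lower with TMM scaling and all 4 with total counts or reference genes. Xpo1 (chr11:23256041-23298249), the exportin for leucine-rich export signals, had 4663 and 1407 counts, 264 and 104 CPM, 2.54-fold lower (2.39 to 2.69). Cse1l, which returns importin alpha to the cytoplasm, was 1.48-fold lower, and the transfer RNA exportin Xpot was 1.40-fold lower (290 and 207 CPM). Of the 50-base runs of Xpot, 14.4% occur in other genes. Xpo5, the exportin for microRNA precursors, had 1615 and 1656 counts or 91.3 and 122 CPM (1.34-fold higher, 1.25 to 1.44), and log2 ratios of -0.18 with total counts and -0.24 with reference genes. Ran (ENSMUSG00000029430), whose GTP-bound form loads exportins and unloads importins, had 9894 and 9509 counts, 559 and 703 CPM, 1.26-fold higher (1.22 to 1.29). With total counts and reference genes its log2 ratio was -0.27 and -0.33, and 15.4% of its 50-base runs occur in other genes.

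Levels per kilobase of transcript, the scale on which genes can be compared, ranked Ran at the top in both libraries, at 231 and 290 CPM per kilobase. In the 2D library Ipo7 (107), Ipo5 (90.7), Kpna2 (83.1), Sec13 (80.4) and Kpnb1 (76) followed. In the 3D library the order was Ipo5 (134), Sec13 (97.1), Kpnb1 (73.6), Kpna2 (70.4) and Ipo4 (69.9 CPM per kilobase), with Ipo7 at rank 8 (50.8). Ipo4 moved from rank 23 to rank 6, Nup214 from 45 to 24, Ranbp2 from 21 to 42, Tpr from 18 to 38 and Xpo1 from 9 to 29 of 46. Nup133 was the lowest in both at 4.89 and 4.90 CPM per kilobase. Across the 46 genes the levels on this scale had a Spearman rho of 0.74 between the libraries, against 0.89 over 10535 measured protein-coding genes with counts in both. Pearson r of the log2 levels was closer, at 0.83 against 0.90, and the sets were not matched for their range of levels. These are correlations across genes within 1 pair of libraries.

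Summed over the 46 genes, the counts were 118599 in 2D, 0.825% of the total (Wilson 95% interval 0.821% to 0.830%), and 82526 in 3D, 0.496% (0.492% to 0.499%). On the TMM scale the sums were 6706 and 6099 CPM, a ratio of 0.909, so the size of this difference depends on the scaling.

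The ratios of the members followed the GC content of their transcripts. Across the 46 genes, the log2 ratio and the GC content of the longest protein-coding transcript had a Pearson r of 0.75 and a Spearman rho of 0.77, against 0.60 and 0.63 over 10538 measured protein-coding genes. All these points share the same libraries and scaling, and genes are not independent replicates. Ranbp2, Xpo1, Kpna4 and Ipo7 had transcripts of 40.6%, 40.4%, 40.1% and 40.3% GC, whereas those of Nup214 and Ipo4 had 53.8% and 56.2%. Tpr, Nup153 and Nup54, also at least 2-fold lower, had 45.0%, 45.9% and 45.5%, closer to the middle of the members. The median over members was 46.8%, below the 50.1% of measured protein-coding genes, and their exons were longer, with a median of 6416 bases against 4571. In the bin of 32.7% to 44.3% GC, protein-coding genes had a median log2 ratio of -1.10, and only 2 of the 12 members there lay below it. Between 44.3% and 48.3% GC, the median was -0.39 for protein-coding genes, and 9 of 17 members lay below it.

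**Figure D3:**
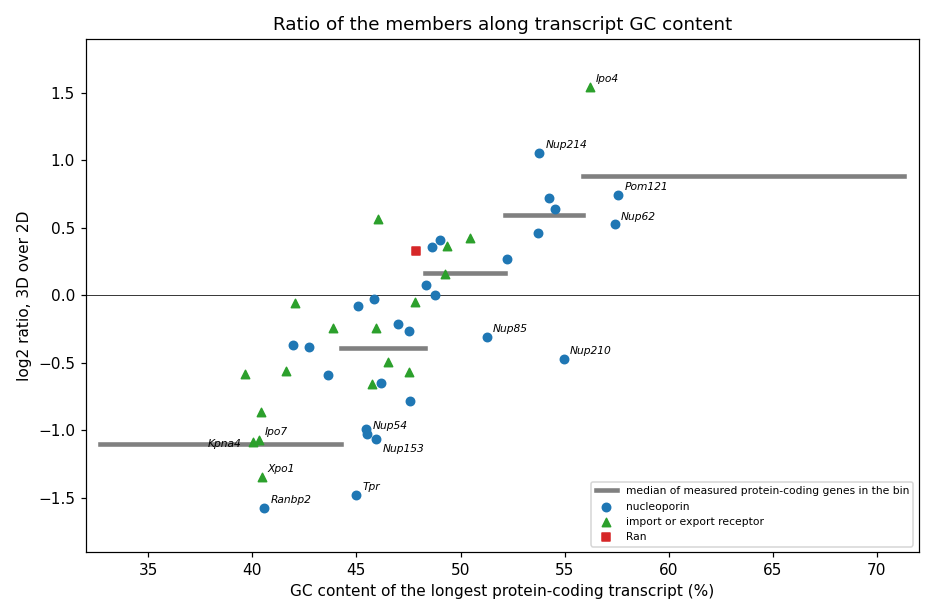
Log2 ratio of the 3D over the 2D library (vertical) against GC content of the longest protein-coding transcript in percent (horizontal); symbols mark nucleoporins, receptors and Ran, and grey bars the median of measured protein-coding genes within each of 5 GC ranges. The members climb with the grey bars, from Ranbp2 and Xpo1 near 40% to Nup214 and Ipo4 above 53%, while Tpr, Nup210 and Nup85 lie below the bar of their range.

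After the log2 ratios were adjusted for transcript GC content, exon length and level, the members sat near the centre of all genes. Their adjusted median log2 ratio was 0.025, against 0.05 for all genes, with 20 members above and 26 below. Tpr, at -1.02, was the only member still at least 2-fold different, beside a background of 8.97% lower and 9.96% higher. Ranbp2 was at -0.55 and Xpo1 at -0.47 on the adjusted log2 scale, Ipo7 was at -0.21, Ipo4 at 0.54 and Nup214 at 0.61. Kpna4 was at 0.019. The lowest adjusted values after Tpr belonged to Nup210 (-0.83), Nup153 (-0.74), Nup85 (-0.70), Nup107 (-0.69), Nup62 (-0.65) and Nup54 (-0.65), all of them nucleoporins. Kpna1 (0.84), Nup214, Nup155 (0.56), Ipo4 and Ipo11 (0.53) had the highest. Both channel genes, which were on opposite sides before, had nearly the same adjusted value. The 27 nucleoporins had an adjusted median of -0.11, with 18 below the all-gene median, and the 18 receptors one of 0.08. Among the scaffold groups, the Y complex was at -0.29 and the inner ring at 0.14. The subunits of the Y complex changed places, with 3 above the all-gene median and 5 below. Sec13, the highest before, was at -0.47, whereas Seh1l (0.41), Nup133 (0.35) and Nup37 (0.15) lay above.

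**Figure D4:**
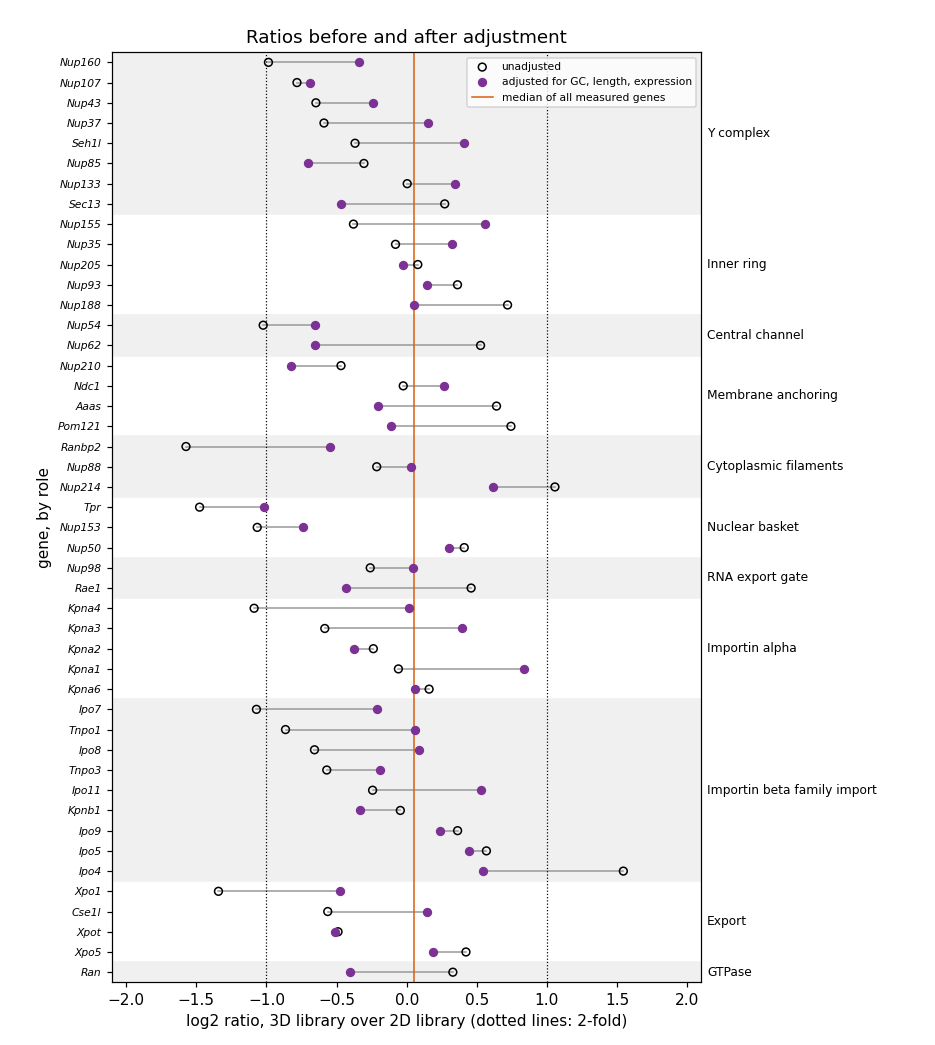
Log2 ratio of each member before (open circles) and after (purple) adjustment for GC content, exon length and expression, by role; the orange line is the median of all measured genes (0.05) and dotted lines mark 2-fold. After adjustment Tpr (-1.02) is the only point beyond a dotted line, and Nup54 and Nup62 coincide near -0.65.

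Genes of the same pathway outside the 46 were mixed, and their counts past 2-fold are to be read against 18.7% higher and 20.8% lower among all genes. Of 10 other nucleoporins and pore-associated proteins, 6 were measured, with 0 at least 2-fold higher and 1 lower: Ahctf1, which seeds pore assembly on chromatin, was 2.17-fold lower (83.8 and 38.6 CPM). The messenger RNA export helicase Ddx19a and its activator Gle1 were at log2 ratios of 0.92 and 0.56, and Tmem33 at -0.27. Of 10 measured further receptors and adaptors, 1 was higher and 2 lower: Ipo13 was 2.48-fold higher, Ranbp6 4.99-fold lower and Xpo4 2.13-fold lower, and Xpo6, the actin exportin, had a log2 ratio of 0.62. In the Ran cycle, 1 of 6 measured regulators was higher, Ranbp3, a cofactor of Xpo1, at 63.6 and 135 CPM (2.12-fold), and 0 were lower. Rangap1, which triggers GTP hydrolysis on Ran, had a log2 ratio of 0.54, Ranbp10 -0.40 and Ranbp1 -0.34.

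Among messenger RNA export factors, 3 of 19 measured genes were higher and 4 lower. Thoc2, the largest subunit of the THO complex, was 4.91-fold lower (122 and 24.8 CPM), Nxt2 3.06-fold lower and Pcid2 2.51-fold higher. The other genes past 2-fold, named after their values were seen, were Thoc5 (2.37-fold higher), Thoc6 (2.02-fold higher) and Thoc7 (2.07-fold lower). Zc3h11a was 13.0-fold lower with 14 counts in the 3D library, but other genes are annotated over its locus and its counts are uncertain. In the lamina and nuclear envelope list, 2 of 16 were higher and 3 lower. Lmna, which encodes lamins A and C, had 589 and 2062 CPM (3.50-fold higher), and emerin Emd was 2.04-fold higher. The lamin B receptor Lbr and the giant linker protein gene Syne1 were at log2 ratios of -1.07 and -1.19, and Syne2, named after its value was seen, had 79 and 15 counts. Over all 61 measured genes of the related lists, including 4 not described here, 7 were higher and 11 lower, 11.5% and 18%, both below the shares of all genes, with a median log2 ratio of 0.01.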

How the data were processed

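RNA of RAW264.7 cells was sequenced in 1 library of 2D culture and 1 of 3D culture. The files hold raw counts per Ensembl gene as deposited by the authors; Trimmomatic, HISAT2, HTSeq and mm10 are named in the submitters' processing notes, without versions, strand option or overlap mode. Totals were 14371084 counts (2D) and 16652503 (3D).

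Of 52550 identifiers, 52403 (99.7%) matched GENCODE M21 and 147 did not. Library sizes were multiplied by TMM factors (edgeR 4.0.16, R 4.3.3), which were 1.231 for 2D and 0.813 for 3D. A gene was measured at a mean of at least 1 scaled count per 1000000 (CPM), which kept 11673 genes and all 46 members. The ratio of CPM has an exact (Clopper-Pearson) 95% counting interval, and a fold of at least 2 was counted. The adjusted log2 ratio is the residual on natural cubic splines (4 degrees of freedom, patsy 1.0.2) of GC content, exon length and mean CPM over 11666 genes, which took up 47.1% of the variance. It was re-centred on the median of all genes, and a biological difference that follows these properties is removed with it. Ratios, intervals and the adjustment were tested on simulated counts with counting error only, with and without a linear trend in GC content. Such counts hold no spread between cultures and no trend in exon length or level, so the simulation does not cover these.

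With 1 library per culture method, no test, p-value or leaving out of libraries was possible. Other scalings (DESeq2 1.42.0, upper quartile, totals, reference genes), filters, a pseudocount, thinning and thresholds were tried. The members and lists were chosen with earlier results of these data known. Any member could be named, and the highest and lowest ratio in each role group are given in full. Genes of related lists were named by the ratio farthest from 1, up to 4 per list, at a mean of at least 5 CPM, with exceptions stated. Genes that share sequence or exons with members are named only for that overlap. Protein features were not analysed here. Some genes of the marker and related lists are not reported here.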

Additional observations from a re-analysis of the deposited data

How the results depend on the processing

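No paired analysis was possible because each culture method has 1 library, and none could be left out. At least 2-fold higher and lower were 2 and 7 members with TMM, DESeq2 and upper-quartile scaling. They were 0 and 18 with total counts (5.59% and 36.5% of all genes), 0 and 20 with reference genes (4.75% and 38.5%; the all-gene median shifts by -0.68), 0 and 1 after adjustment (9.96% and 8.97%), 5 and 13 at 1.5-fold (31.7% and 30.4%), and 0 and 0 at 4-fold (2.23% and 6.67%). The interval bound nearest to 1 was past 2-fold for 1 and 4 (13.1% and 14.4%). The lower counts with total counts and reference genes are 39.1% and 43.5% of the members, above the shares of all genes. Directions turned for 12 members with total counts, 13 with reference genes and 21 after adjustment. With protein-coding genes only, 1 was higher and 8 lower (16.3% and 20.3%), and 1 and 6 without the 11 members that share sequence or overlap another gene, an alternative chosen after seeing the data. The relative median of -0.29 became -0.14 with no filter and -0.027 after adjustment. Of the 9 called members, Tpr kept its call under all 10 alternatives to the ratio. Kpna4 turned to 0.019 after adjustment, and the cause was not tested. Depth limits Nup43 most, at 346 and 169 counts.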

Other observations

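Some members share most of their sequence with another gene. In all, 9 members have at least 5% of their 50-base runs in other genes. Gm4353, which holds 83.1% of the 50-base runs of Nup35, had 131 and 211 counts in 2D and 3D, beside 815 and 590 of Nup35. Gm10184, which holds 91.0% of the runs of Kpna2, had 31 and 29, beside 3018 and 1958 of Kpna2. Gm49378, which holds 59.6% of the runs of Ipo4, is not among the gene identifiers counted and so has no counts.

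In the related lists, 1 gene was at least 2-fold higher and 3 lower after adjustment, of 61 measured, where 9.96% and 8.97% of all genes were. These 4 were picked after their values were seen. Tmem33 stood at 1.32 on the adjusted log2 scale, Zc3h11a at -2.58, the nuclear envelope gene Syne3 at -1.51 and the lamin gene Lmnb1 at -1.43. Lmna had an adjusted value of 0.28.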
